A study of Mus musculus with 10 samples.

Results

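The regions described are 559 isolated unmethylated tiles of mouse embryo DNA. Each is a 1 kb stretch of an autosome in which 5 to 9 cytosines of CG dinucleotides were assayed, whose mean methylation was under 10%, and around which no other assayed tile within 2 kb was under 20%. The methylation level of a cytosine is the count of methylated reads divided by the coverage, both summed over the 10 libraries, and the level of a tile is the mean over its cytosines. Each strand is a row of its own in the table, so a CG read on both strands counts as 2 assayed cytosines. Of 257476 autosomal tiles with an assayed cytosine, 70357 held 5 to 9 of them and 2327 of those were under 10%. The 559 isolated ones were 24.02% of these 2327, and 0.217% of all tiles. The level, the number of assayed cytosines and the levels of the neighbours chose the tiles, so they are given below as a description only. The distance to genes, the sequence and the tiles beyond 2 kb were not used in the choice.

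The samples were 5 embryos labelled arsenic and 5 labelled control, all whole mouse embryos at embryonic day 7.5, from an experiment that the labels call the second. Each library came from the DNA of 1 embryo, per the labels' protocols, and a whole embryo mixes the embryonic and any extraembryonic cells it held. Neither the dose and timing of arsenic nor the strain and sex of the embryos is stated in the labels. The deposited counts are named as those of F2 embryos, so the label arsenic need not mean that the embryos themselves were exposed. The assay was reduced representation bisulfite sequencing, which reads restriction fragments rich in CG after bisulfite has changed their unmethylated cytosines. The table of counts names its libraries only by number, so it is not known here which are from arsenic and which from control embryos, and no comparison of arsenic with control was made. The table held 2346489 autosomal cytosines, each with a coverage of at least 10 in every library. The median coverage per cytosine was 30 to 42 over the 10 libraries.

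In mammals most CG sites outside gene starts carry 5-methylcytosine. CpG islands, stretches dense in CG that often overlie gene starts, are usually kept free of it. Around embryonic day 7.5 the mouse embryo gastrulates, and methylation lost after fertilisation has largely been laid down again, so most tiles of such DNA are methylated. The 10 libraries had a mean tile level of 51.4 to 54.8% over all autosomal tiles.

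The stretches printed here show what such a tile holds. They are the 5 lowest tiles in which every assayed cytosine lay inside 1 listed start window, followed by a methylated tile with the same kind of position for contrast. The letters are RefSeq sequence of build GRCm38.p6, written 5′ to 3′ on the strand of the gene, and capitals mark each CG of which a cytosine was assayed. The stretches are Ehd4 at chr2:120154611-120154707 on the minus strand, Ypel3 at chr7:126776854-126776940 on the plus strand, Trpc1 at chr9:95750300-95750373 on the minus strand, Lnx2 at chr5:147076581-147076671 on the minus strand, Spag5 at chr11:78301496-78301574 on the plus strand and, for contrast, Cort at chr4:149126774-149126993 on the minus strand.
Ehd4: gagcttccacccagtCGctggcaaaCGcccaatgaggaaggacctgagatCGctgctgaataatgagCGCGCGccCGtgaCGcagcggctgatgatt
Ypel3: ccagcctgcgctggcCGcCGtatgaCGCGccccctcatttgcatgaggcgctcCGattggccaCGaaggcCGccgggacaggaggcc
Trpc1: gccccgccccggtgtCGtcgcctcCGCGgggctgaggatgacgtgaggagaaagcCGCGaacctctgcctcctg
Lnx2: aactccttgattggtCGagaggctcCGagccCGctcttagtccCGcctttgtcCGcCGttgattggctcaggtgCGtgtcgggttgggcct
Spag5: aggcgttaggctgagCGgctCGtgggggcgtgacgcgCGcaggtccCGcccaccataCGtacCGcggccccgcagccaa
Cort: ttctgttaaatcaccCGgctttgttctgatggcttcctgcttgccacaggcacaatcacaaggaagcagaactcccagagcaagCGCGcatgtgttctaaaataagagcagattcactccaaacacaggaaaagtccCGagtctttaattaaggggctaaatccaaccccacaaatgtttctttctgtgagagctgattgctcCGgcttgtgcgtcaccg

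Ehd4 encodes an endocytic membrane-remodelling protein, and its tile had 8 assayed cytosines at a level of 0.312%, with 0 to 1.32% over the libraries. Ypel3, of the Yippee-like family, had 7 cytosines at 0.369% and at most 1.43% in a library. Trpc1, a cation channel, had 5 at 0.370% and at most 2.00%. Lnx2, a ubiquitin ligase that binds Numb, had 7 at 0.373% and at most 2.93%. Spag5, which encodes the spindle protein astrin, had 6 at 0.428% and at most 1.85%. The tile at Cort, which encodes the neuropeptide cortistatin and was picked for contrast after the levels were seen, had 9 cytosines at 70.5%. The 300 bp listed windows of the 5 unmethylated examples held 29, 28, 22, 29 and 23 CG in the order printed, while that of Cort held 10.

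Most of the tiles were well below the 10% limit that chose them. Their median level was 3.92% and their mean 4.47%, 329 were under 5% and 53 under 1%. The histogram of isolated tiles by level shows no peak near the limit, with 158 tiles at 0 to 2%, 90 at 8 to 10% and 95 at 10 to 12%. The 3 tiles just under the limit were at Gins1, a subunit of the DNA replication helicase, inside Dock9, an activator of the GTPase Cdc42, and inside Ccnd2, which encodes cyclin D2, each at 9.99%. The 3 isolated tiles just over it were nearest to Gm22459 at 10.0308%, to Rab12 at 10.1% and to Gm46536 within the collagen gene Col2a1 at 10.1%.

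**Figure D1:**
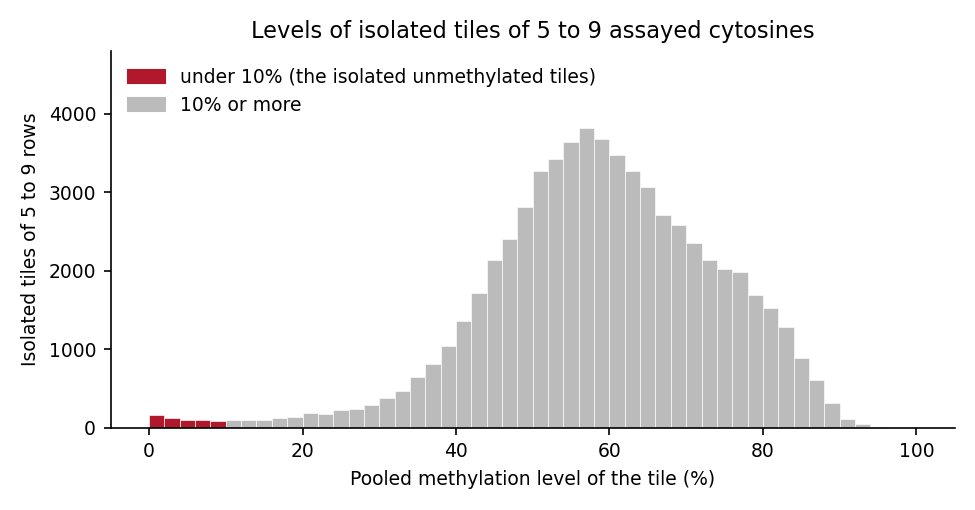
Number of isolated tiles of 5 to 9 assayed cytosines (vertical axis) by pooled methylation level in bins of 2 percentage points (horizontal axis). The isolated unmethylated tiles are drawn in red and the remaining isolated tiles in grey. The tiles under 10% form a low tail of 559 tiles, far from the main peak at 56 to 58%.

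No methylated read was counted at either of the lowest tiles. At Grina, which encodes a glutamate receptor-associated membrane protein, the tile chr15:76246000-76246999 had 0 methylated reads of 1646, which allows a level of up to 0.182%. At chr8:84638000-84638999, inside the calcium channel gene Cacna1a and 118 bp from the lncRNA gene Gm39212, the count was 0 of 833, which allows up to 0.360%. The tile at Pla2g12a, a secreted phospholipase gene, was at 0.0639%, from 1 methylated read of 1565. The tile 400 bp from the end of Optn, the gene of the autophagy receptor optineurin, was at 0.118%, from 2 of 1679. These limits and intervals cover counting error only, since the reads carry no molecular identifiers and a read counts at every CG it spans.

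The tiles were low in nearly every library. Of the 559, 362 were under 10% in all 10 libraries, 193 reached 10 to 20% in their highest library, and 4 reached 20% or more. In 187 tiles at least 1 library was at 0. The median over the tiles lay between 3.30 and 4.01% in the 10 libraries. Because the pooled level includes each library, the choice was repeated on the other 9 libraries 10 times: 88.7 to 93.0% of the tiles so chosen were under 10% in the library left out, at most 2 of them were at 20% or more there, and their median in it was 3.30 to 4.00%. The low level thus recurred in a library that had no part in the choice. Single cytosines were less uniform: 273 tiles had every cytosine under 10%, and 80 (14.3%) had a cytosine at 20% or more.

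The 4 tiles with the widest ranges, picked for that, stand apart in the plot of named tiles by library. At 5330439K02Rik, chr15:100443000-100443999, library 2 was at 29.3% while the other 9 libraries were at 2.40 to 6.09%. At Pdk4, which encodes a kinase that inactivates pyruvate dehydrogenase, libraries 7, 3 and 8 were at 25.5, 18.4 and 15.9% and the other 7 at 3.36 to 7.97%. At Fam151b, library 3 was at 23.3% and library 9 at 16.8%, against 2.25 to 9.28% in the others. At Ano4, of the anoctamin family, library 4 was at 19.8% and library 7 at 0%, and the median was 8.17%. Mean coverage per cytosine and library was 19.2 at 5330439K02Rik, 16.3 at Pdk4, 31.6 at Fam151b and 17.4 at Ano4. Over all autosomal cytosines the library medians were 30 to 42. The part of depth in these ranges was not tested. The median range over the libraries was 5.75 percentage points for all 559 tiles. It was 2.99 points in the tiles of 0 to 2% and 9.21 points in those of 8 to 10%.

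**Figure D2:**
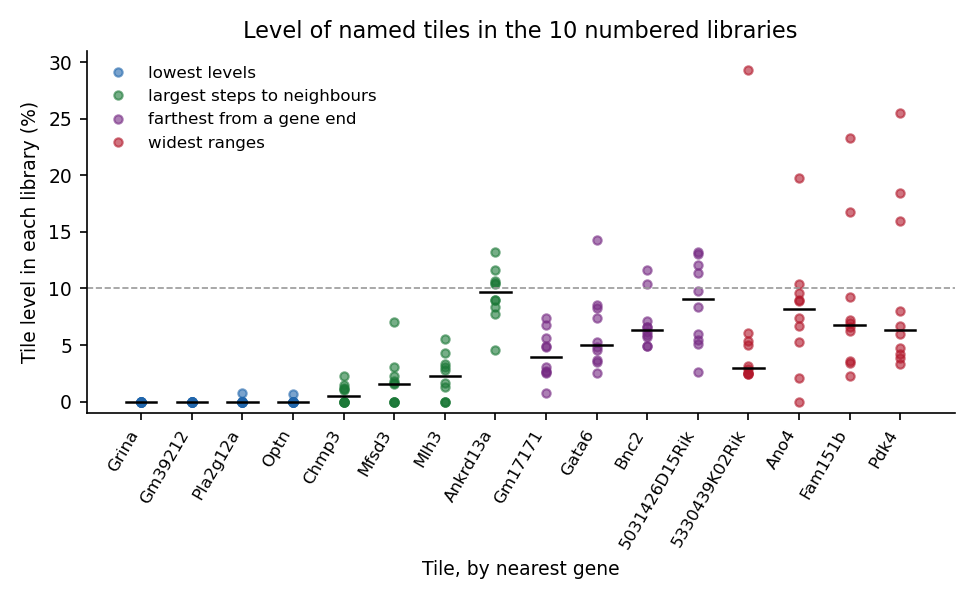
Level of named tiles (vertical axis, percent) in each of the 10 numbered libraries (points), with the median as a bar, grouped by the reason the tile was named; tiles carry the name of the nearest gene. The dashed line marks the 10% limit for the pooled level. The lowest tiles sit at or near 0 in all libraries, while 5330439K02Rik has 1 library at 29.3% and the others at 6.09% or less.

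The isolation of the tiles rested in part on what was assayed. No other tile within 2 kb was assayed at all for 247 tiles (44.2%, Wilson 95% interval 40.1 to 48.3%), 166 had 1 assayed neighbour, 112 had 2, 34 had 3 and none had all 4. For those 247 the rule could not find a low neighbour. In the 82 tiles with an assayed tile on both sides, the nearest neighbours had a median level of 48.0%, and the tile was lower than its neighbours by a median of 42.7 percentage points, with a range of 19.2 to 79.4.

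Of the 4 tiles with the largest steps, 3 were within 1000 bp of a gene end. Of the 82 tiles they were drawn from, 49 (59.8%) were. Mlh3, a mismatch repair gene that also acts in meiosis, had a tile at 2.07% between neighbours at 86.8 and 76.2%. Chmp3, an ESCRT-III subunit gene, had a tile at 0.794% between neighbours at 70.6 and 79.3%. Mfsd3, a transporter family member, had a tile at 1.94% between 79.6 and 68.7%. The tile of Ankrd13a, the gene of a ubiquitin-binding ankyrin repeat protein, was at 9.53% between 68.8 and 82.8% and lay 3822 bp from the nearest gene end. Of these 4 tiles, that of Ankrd13a was the 1 farther than 1000 bp from an end, and the highest in level.

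Beyond the reach of the rule, 3 to 10 tiles away, methylation was high but low tiles were not rare. Of 483 unmethylated tiles with an assayed tile at that distance, 173 (35.8%) had 1 or more under 20%, against 10208 of 50851 (20.1%) for isolated tiles of 5 to 9 cytosines at 20% or more. Split by position, among tiles within 1000 bp of a gene end the shares were 34.7% for the unmethylated and 28.5% for the methylated tiles, and among tiles over 10000 bp from one they were 10.8% (7 of 65) and 5.96%. The median level of the tiles 3 to 10 away was 54.3% around the unmethylated tiles and 58.4% around the methylated ones.

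**Figure D3:**
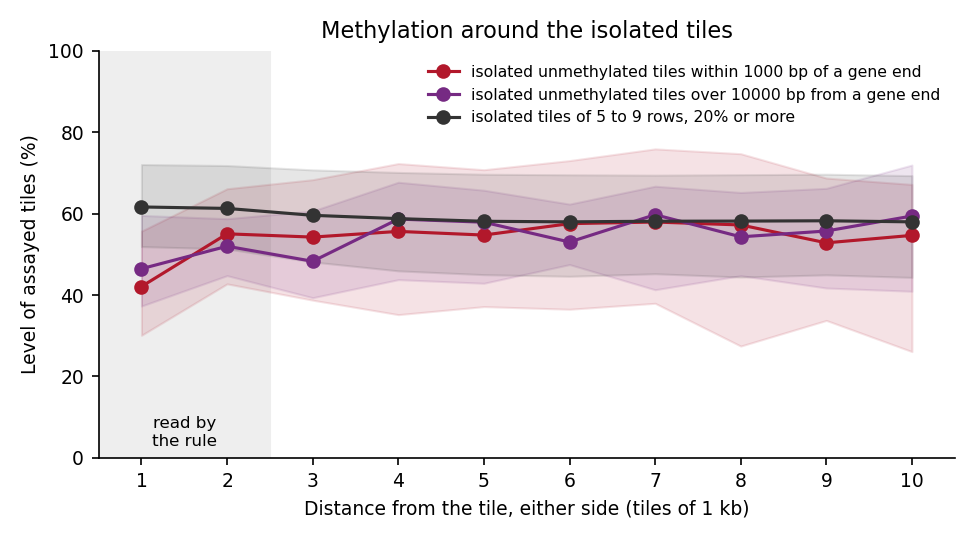
Median level (points) and quartiles (bands) of assayed tiles at each distance of 1 to 10 tiles on either side (horizontal axis, tiles of 1 kb), around isolated unmethylated tiles within 1000 bp of a gene end, those over 10000 bp from one, and isolated tiles of 20% or more. The grey area marks the distances that the rule read. Medians at 3 or more tiles stay near 48 to 60% in all 3 sets.

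The tiles lay close to gene ends. Of the 559, 356 (63.7%, Wilson 95% interval 59.6 to 67.6%) were within 1000 bp of an annotated end of a gene, in the RefSeq annotation of GRCm38.p6, and 254 (45.4%) contained one. The median distance from the tile to the nearest end was 94 bp, with an interval of 4 to 206 bp. Of isolated tiles of 5 to 9 cytosines at 20% or more, 7222 of 62774 (11.5%, 11.3 to 11.8%) were within 1000 bp, with a median distance of 10662.5 bp. These intervals do not overlap. They treat tiles as independent. The share among isolated tiles at 10 to 20%, of which there were by coincidence also 559, was 32.02% (28.3 to 36.0%), between the other sets. The isolated methylated tiles leave out those with a tile under 20% within 2 kb, such as tiles beside an unmethylated gene start. Of all 70357 tiles of 5 to 9 cytosines, isolated or not, 11068 (15.7%) were within 1000 bp.

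Low tiles that were not isolated lay differently at gene ends. The 1768 tiles of 5 to 9 cytosines under 10% that had a low neighbour were within 1000 bp of a gene end in 76.0% (73.9 to 77.9%), above the 63.7% of the isolated ones, but contained an end in 26.6%, below the 45.4% of the isolated ones. Isolated tiles of 10 or more cytosines under 10%, 4273 in all, were within 1000 bp in 79.1% (77.8 to 80.2%) and contained an end in 61.0%. The curves of distance cross for this reason: at short distances the isolated tiles of 5 to 9 cytosines were above the non-isolated ones, and at 1000 bp they were below them.

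**Figure D4:**
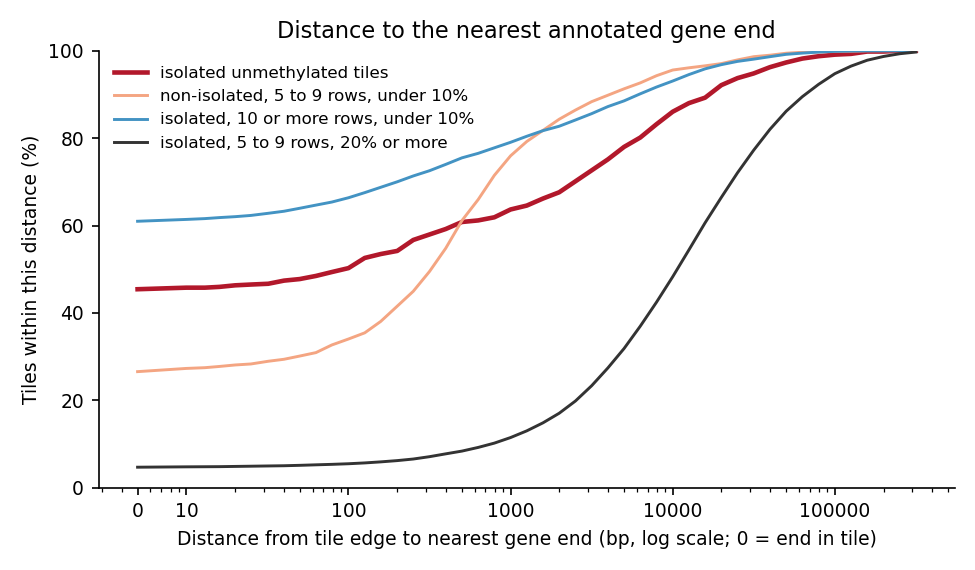
Share of tiles (vertical axis, percent) whose nearest annotated gene end lies within the distance on the horizontal axis (bp, log scale, with 0 for an end inside the tile). At 0 bp the isolated unmethylated tiles stand at 45.4%, the non-isolated low tiles at 26.6%, the isolated low tiles of 10 or more cytosines at 61.0% and the isolated tiles of 20% or more at 4.72%.

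Within the 559, the share near a gene end was largest at the lowest levels. The share within 1000 bp of a gene end was 85.4% of the 158 tiles at 0 to 2%, 68.3% of the 123 at 2 to 4%, 55.3% of the 94 at 4 to 6%, 44.7% of the 94 at 6 to 8% and 47.8% of the 90 at 8 to 10%. Each of these was above the 11.5% of isolated methylated tiles. The number of assayed cytosines moved the share less, from 58.8% at 5 cytosines to 68.5% at 7 and 59.2% at 9. Tiles with no assayed neighbour were within 1000 bp in 67.2%, and tiles assayed on both sides in 59.8%. Assay geometry moved with level: 71.5% of the tiles at 0 to 2% had cytosines assayed on 1 strand only, against 44.4% at 8 to 10%, and the assayed cytosines spanned a median of 94.5 and 157 bp. Over the 559 tiles, 52.2% were assayed on 1 strand, against 20.6% of isolated methylated tiles. The part of these differences in the distances was not tested.

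Most of the ends were gene starts where the strand was known. The table of gene starts gives their strand, but it lists starts for 25748 of the 47038 genes and none on chromosome 18, where 11 of the tiles lie. The tiles at Grina and Mfsd3, for example, contain a gene end whose start is not listed, so counts of tiles at listed starts are undercounts in every set of tiles. For the 348 tiles within 1000 bp of a gene end on other chromosomes, 244 (70.1%) had a gene start within that distance, 24 (6.90%) had only a 3′ end there, and for 80 the strand of the gene was not listed. Of the 6998 isolated tiles at 20% or more within 1000 bp of an end, 26.3% were at a start and 37.9% at a 3′ end only. For 35.8% the strand was not listed. Methylated tiles with a tile under 20% within 2 kb, as beside an unmethylated start, are not in this set by the rule. The part of this in these shares was not tested. Among all 548 tiles off chromosome 18, 217 (39.6%) overlapped a listed start window, 250 bp before to 50 bp after a start, against 1.78% of isolated methylated tiles. Among all tiles of 5 to 9 cytosines off chromosome 18, isolated or not, the share was 3.31%.

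Protein-coding genes were the nearest gene for 274 of the 356 tiles within 1000 bp (77.0%), lncRNA genes for 56 and pseudogenes for 5. For the isolated methylated tiles within 1000 bp, 42.2% were nearest a protein-coding gene, 36.4% an lncRNA gene and 16.1% a pseudogene. The annotation lists predicted genes too, and with protein-coding genes alone 51.9% of the 559 were within 1000 bp. Counted by gene, 450 of the 10828 genes that had a tile of 5 to 9 cytosines within 1000 bp had an isolated unmethylated one (4.16%). A tile of 5 to 9 cytosines under 10%, isolated or not, was there at 2169 of these genes. A small share with an isolated one thus need not mean few unmethylated ends. The share with an isolated one was 5.74% (338 of 5892) for protein-coding genes, 2.40% for lncRNA genes and 0.506% for pseudogenes. The lists below are read beside the share of 4.16% and, for lists of protein-coding genes, beside 5.74%. Their members were not chosen blind to these data, no list was tested, and a count from a short list is imprecise.

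Zinc finger genes, here those with symbols starting Zfp or Zscan, had such a tile at 18 of 125 genes (14.4%). Low tiles of 5 to 9 cytosines, isolated or not, were at 49 of the 125. The median level of the isolated unmethylated tiles of this list was 1.51%, from 0.616% at Zfp940 to 7.58% at Zfp213. The tile of Zfp940 was at 0 in its median library and at 4.33% in its highest. Zfp330, Zfp780b, Zfp385c, Zfp746 and Zfp658 followed at 0.697, 0.902, 0.956, 0.956 and 0.957%, each with at least 1 library at 0. Zfp213 stood apart as the highest of the list and among the most deeply read of all the tiles, with a mean coverage of 124 per cytosine and library.

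Transfer RNA genes, short genes read by RNA polymerase III from promoters inside the gene, had such a tile at 14 of 81 (17.3%), but these were only 7 tiles, since several tRNA genes share 1. In 6 of the tiles a tRNA gene was the nearest gene, and 5 of those lay between 21327000 and 23518999 on chromosome 13. The tile at n-TStga1 was within 1000 bp of 5 tRNA genes and was at 1.02%, with 0 to 1.76% over the libraries. The tile at n-TKctt29 on chromosome 19 was the lowest at 0.885%. Small nuclear, nucleolar and microRNA genes had 13 of 396 (3.28%), among them Rnu2-10, a U2 snRNA gene, with a tile at 3.67%. Isolated or not, low tiles of 5 to 9 cytosines were at 62 of the 81 tRNA genes and 65 of these 396.

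Among housekeeping lists, splicing genes had 3 of 23 (13.04%), Srsf11 at 0.595%, Snrpb2 of the U2 particle at 1.68% and Snrpg of the Sm core at 3.73%. Ribosome and translation genes had 2 of 74 (2.70%), the initiation factor genes Eif3f at 1.62% and Eif2d at 6.07%. A low tile of 5 to 9 cytosines, isolated or not, was at 24 of these 74. Respiratory chain genes had 2 of 34 (5.88%), Atp5e of ATP synthase at 1.62% and Ndufb3 of complex I at 2.13%. Proteasome and ubiquitin genes had 1 of 52, Usp16, a histone H2A deubiquitinase, at 1.82%. Isolated or not, low tiles were at 12 of the 23 splicing genes, 14 of the 34 respiratory chain genes and 19 of these 52.

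Among developmental and epigenetic lists, homeobox, forkhead and Sox genes had 1 of 61 (1.64%), at Foxm1, a cell-cycle regulator that shares its tile with Rhno1, at 6.70%. Isolated or not, a low tile of 5 to 9 cytosines was at 15 of these 61. Of 8 imprinted genes with a suitable tile, 1 (12.5%) had it isolated and unmethylated: Impact, which is expressed from the paternal allele in mouse and lies on chromosome 18, at 4.38% with 0.980 to 9.88% over the libraries, 310 bp from the gene's end. No gene of the list for arsenic and oxidative stress (0 of 6) or of the DNA methylation machinery (0 of 5) had one. Low tiles of 5 to 9 cytosines, isolated or not, were at 1 of these 6, 2 of these 5 and 2 of the 8 imprinted genes.

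A minority lay far from any gene end. In all, 78 tiles (14.0%) were more than 10000 bp from one, 40 of them inside a gene and 38 outside, and 15 were over 50000 bp away. Isolated methylated tiles were that far in 51.7% and non-isolated low tiles in 4.41%. The far tiles had a median level of 5.25%, against 3.81% for the other 481, and 13.2% of them overlapped a listed start window, since a listed start can lie inside the span of a gene.

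The farthest was chr2:20547000-20547999 inside Etl4, a gene needed for the intervertebral disc, at 213741 bp from the nearest end, that of Gm17171. Its level was 3.92%, with 0.762% as the lowest and 7.39% as the highest library value, and no tile within 2 kb was assayed. The next were a tile on chromosome 18 at 153364 bp from Gata6, an endoderm transcription factor gene, with 6.18%, and a tile inside the RNA-binding protein gene Celf2 at 152278 bp from 5031426D15Rik with 9.65%. The Celf2 tile, though far from the ends of the gene, overlapped a listed start window. A tile inside Bnc2, a zinc finger gene, lay 130030 bp from its end and was at 7.24%. Only the Celf2 tile of these 4 had assayed tiles on both sides, at 44.7 and 71.6%. The lowest tiles over 10000 bp from an end, picked out after the levels were seen, were inside Sybu at 0.455%, 32670 bp from Lpin1 at 0.631% and inside Zswim6 at 0.789%, each at 0 in its median library.

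The tiles held few assayed cytosines, yet the gene start windows that could be read were rich in CG. Of the 559 tiles, 101 had a listed start window of 300 bp that held at least 3 of their assayed cytosines. The other tiles had no such window, and their sequence was not read. These 101 windows contained a median of 18 CG (quartiles 12 and 27), with a median observed to expected CG ratio of 0.71 and a GC content of 62.0%. In 342 such windows of isolated methylated tiles the median was 6 CG, the ratio 0.32 and the GC content 51.7%. The non-isolated low tiles had 21 CG in 282 windows, and isolated low tiles of 10 or more cytosines 23 CG in 1787. A median of 30% of the CG in the 101 windows had been assayed, against 60% in the 342 windows of the methylated tiles.

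The windows at lower levels were denser in CG. They held a median of 21.5 CG in the 50 windows of tiles under 2%, 16 in the 27 of tiles at 2 to 5% and 12 in the 24 at 5% or more. The 606 assayed cytosines in these windows lay mostly before the start, 496 upstream of it, at a median position of -72.5 bp. The window itself reaches farther before the start than after it.

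**Figure D5:**
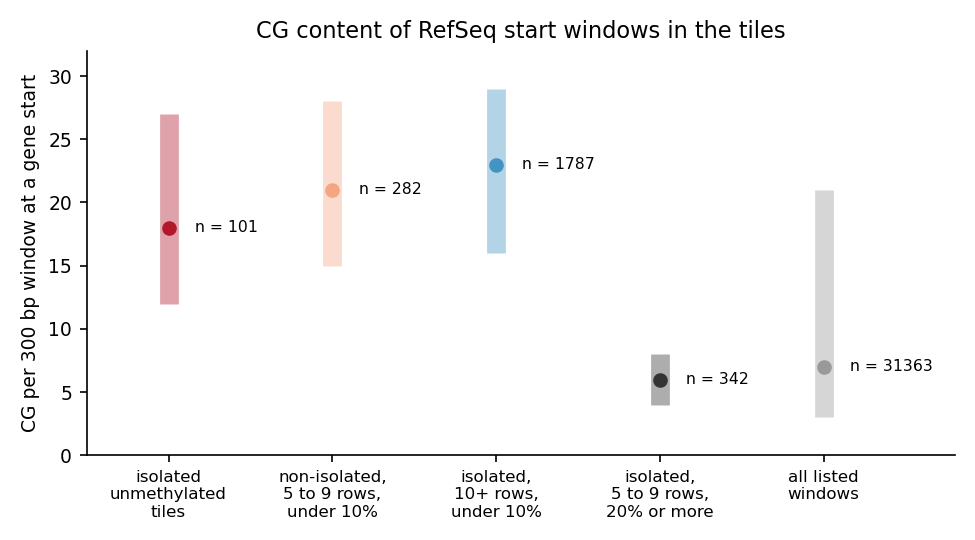
Number of CG in 300 bp windows at RefSeq gene starts (vertical axis), as median (point) and quartiles (bar), for windows that hold at least 3 assayed cytosines of each kind of tile, and for all listed windows. The windows of the isolated unmethylated tiles have a median of 18 CG, and those of the isolated methylated tiles one of 6.

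Short strings known from promoter factors were counted in these windows on both strands. None of the strings contains another. The SP/KLF string GGGCGG occurred in 69.3% of the 101 windows, against 14.3% of the windows of isolated methylated tiles and 35.9% of all 31363 listed windows. The string of the NRF1 site occurred in 11.9%, against 0.585 and 4.66%, and the ETS string CCGGAAG in 22.8%, against 11.99 and 9.001%. In windows of the non-isolated low tiles the SP/KLF, NRF1 and ETS shares were 67.4, 7.45 and 21.3%, and in those of isolated low tiles of 10 or more cytosines 70.7, 11.1 and 24.3%, so these shares lay near those of other low tiles. The NFY string CCAAT was in 43.6%, against 35.7 and 37.3%. The strings TGACGTCA of CRE, CACGTG of E-boxes and TATAAA of the TATA box were in 3, 6 and 5 of the 101 windows. These were 2.97, 5.94 and 4.95%, against 1.83, 7.14 and 13.6% of all listed windows. Windows of the non-isolated low tiles had 5.32, 9.93 and 8.16%. Those of isolated low tiles of 10 or more cytosines had 3.58, 12.1 and 4.92%. The windows compared also differed in CG content, whose part in these shares was not tested, and a match says nothing of binding.

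The tiles were read to a somewhat lower depth than methylated ones. The median coverage of a cytosine in them was 350 reads over the 10 libraries, against 403 in isolated methylated tiles. The most deeply read was next to Gm51545, an lncRNA gene, with a mean coverage of 163 per cytosine and library and a level of 8.53%. Tiles at Med24, a Mediator subunit gene, and next to Ebf1, which encodes a B-lineage transcription factor, had coverages of 127 and 127 at levels of 1.43 and 4.30%. On chromosomes 7 and 19 the tiles were 1.19 and 1.17% of the tiles of 5 to 9 cytosines, and on chromosomes 18 and 1 they were 0.467 and 0.474%, with 51, 25, 11 and 22 tiles.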

How the data were processed

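Whole embryos at embryonic day 7.5, 5 labelled arsenic and 5 control, were profiled by reduced representation bisulfite sequencing. Per the submitters' processing notes, the tools were Bismark, methylKit and Trim Galore and the build mm10, with no versions. How duplicate reads and overlapping mates were treated is not given in the sources used here; reads counted more than 1 time would make intervals too narrow. The deposited table holds counts of coverage, methylated and unmethylated reads per CG cytosine and strand, per the file headers, not normalized. The 30 per-sample columns carry library numbers only and matched no sample, so they were used as a set of 10 libraries. Library totals of coverage ran from 94583116 to 127102232. It was checked that the counts sum to the coverage and that the lowest coverage is 10.

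Cytosines were placed in 1 kb tiles by position, each cytosine of each strand being 1 of the 5 to 9. Neighbours are the assayed tiles at most 2 tiles away. Distances run from the tile's edge to the nearest end of the 47038 autosomal genes of the RefSeq table of GRCm38.p6 (the assembly behind mm10). This table gives no strand, and 31396 listed start windows gave the starts. Exons, introns and UTRs were not used here. Of assayed cytosines in those windows, 178786 lay on a CG and 9 did not. Shares have Wilson 95% intervals, the median distance an order-statistic interval. No group test, set test or correlation was computed. Named tiles were the 4 lowest, the 4 farthest from a gene end, the 4 with the widest range, the 4 most covered, the 4 with the largest steps, the 3 on each side of the limit, up to 6 per gene list and up to 8 over listed windows. The tiles, lists and comparisons were chosen with earlier results of these data known. Python 3.11.15, pandas 2.3.3, NumPy 2.4.6, SciPy 1.17.1 and matplotlib 3.10.9 were used, and the search for tiles and distances was tested on simulated data. Alternatives were a coverage of 20, a level under 5%, a neighbour limit of 30%, isolation within 5 kb, tiles shifted by 500 bp, a level weighted by reads, gene ends within 500 bp, assayed tiles on both sides, merged strands, protein-coding genes alone and each library left out.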

Additional observations from a re-analysis of the deposited data

Results flagged for a closer look

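In 17 of 62 named values, 1 library lay far from the other 9 by Dixon's criterion, always as the highest. Chance alone marks about 1 group in 20 where values follow a normal distribution, which counts mostly at 0 do not. Tiles near 0 also leave room on the high side only. The criterion is always met where only 1 library is above 0, as at Pla2g12a with 1 methylated read and Optn with 2. Over all 559 tiles, 72 (12.9%) had such a library. The libraries mix arsenic and control embryos, and which group a high library belongs to is not known here.

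Library 4 was the highest at Pla2g12a with 0.725%, at the tile toward Gata6 with 14.3%, at Ano4 with 19.8%, at Srsf11 with 4.71%, at n-TMcat13 with 3.79%, at Zfp940 with 4.33% and at Zfp780b with 3.47%. Library 5 was the highest at Usp16 with 4.26%, at Rnu2-10 with 9.38% and at Zfp658 with 4.60%. Library 3 was the highest at LOC115488065, an snRNA gene, with 11.2%, and at Zfp746 with 4.10%. Library 9 was the highest at n-TLcaa2 with 8.93% and at Fer with 3.24%. Library 10 was the highest at Optn with 0.649%, library 7 at Mfsd3 with 7.005% and library 2 at 5330439K02Rik with 29.3%. The tiles at 5330439K02Rik and Ano4 had been named for their wide range. Library 4 had the lowest median coverage, 30, and library 5 the next, 31. Libraries 2, 3, 7, 9 and 10 had 34, 36, 42, 41 and 38. The part of depth in these high values was not tested.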

How the results depend on the processing

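No paired analysis was possible because the columns carry library numbers that match none of the labels, and no result came from a test. No result reversed. With each library left out, the number of tiles was 552 to 560, the share within 1000 bp of a gene end 63.3 to 64.2%, the share in a gene 78.1 to 78.5%, the median distance 86 to 102.5 bp and the share with no assayed neighbour 43.75 to 44.9%. With a coverage of at least 20 there were 971 tiles, of which 228 were among the 559 (40.8% of these, 23.5% of the 971), with 70.1% within 1000 bp of an end, 86.3% in a gene and 57.8% without an assayed neighbour. Fewer cytosines per tile pass that limit, so other tiles fall into the range of 5 to 9. Under a level of 5% there were 329 tiles, 74.8% within 1000 bp, 84.5% in a gene, a median distance of 0 bp and 48.6% without a neighbour. A neighbour limit of 30% gave 51.1% without a neighbour. Requiring assayed tiles on both sides left 82 tiles and gives no share without a neighbour by its construction. Merged strands gave 897 tiles, of which 438 were among the 559 (78.4% of these, 48.8% of the 897), and 48.7% without a neighbour. With protein-coding genes alone, 51.9% were within 1000 bp, 69.6% in a gene, and the median distance was 496 bp. Isolation within 5 kb gave 477 tiles, tiles shifted by 500 bp 543 and a level weighted by reads 573, with 65.0, 59.7 and 63.5% within 1000 bp; 60.8% were within 500 bp of an end. Which tiles meet the rule therefore depends on the coverage limit and on merging the strands, both of which change the count per tile. Isolation within 5 kb and a neighbour limit of 30% kept 85.3 and 86.4% of the 559. The share within 1000 bp of a gene end stayed above 50% in every setting run.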
